A study of Mus musculus with 6 samples.

Results

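The proteasome genes described here are the 48 genes of the deposited table, out of 14868, whose symbol begins with Psma, Psmb, Psmc, Psmd, Psme, Psmf or Psmg and a number, with named pseudogenes left out. The genes fell into 7 subunits of the alpha rings (Psma), 7 constitutive subunits of the beta rings (Psmb1 to Psmb7), 3 immunoproteasome subunits (Psmb8, Psmb9 and Psmb10), 7 genes named Psmc, 14 named Psmd, 5 activators (Psme), 1 inhibitor (Psmf1) and 4 assembly chaperones (Psmg). The symbol rule also caught Psmc3ip, which encodes a partner protein that acts in meiotic recombination and is not a subunit of the particle, and Psme2b, a near copy of Psme2. Total RNA was sequenced from naïve CD4+ T cells of C57BL/6J background that were wild type (WT, 3 libraries) or Ikzf4-/- (3 libraries), the latter lacking the Ikaros-family factor Eos. Both genotypes were cultured for 72 h with plate-bound anti-CD3 (5 µg/mL) and anti-CD28 (2 µg/mL) under Th2-polarizing conditions, which means 10 ng/mL IL-4 and 10 µg/mL of an antibody against interferon gamma. The age and sex of the mice, and whether each library came from a separate mouse or culture, are not given in the sources used here, so p-values measure the spread between these libraries, which may be partly technical.

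The proteasome is the barrel-shaped protease that degrades ubiquitin-tagged proteins. Outer alpha rings gate the entrance and inner beta rings carry the catalytic sites, while a regulatory particle of ATPases, base and lid subunits binds ubiquitin, removes it and unfolds the substrate. In lymphocytes, and in other cells exposed to interferon gamma, the catalytic subunits encoded by Psmb5, Psmb6 and Psmb7 are replaced during assembly by those of Psmb8, Psmb9 and Psmb10, which gives the immunoproteasome, known for making peptides that fit MHC class I molecules.

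Libraries held an implied 34701390 to 40604346 reads, and every member passed the filter on low values (a mean of at least 10). The level of the targeted gene was examined first. WT replicates 1 to 3 held 756, 499.6 and 483 normalized reads of Ikzf4, while Ikzf4-/- replicates 1 to 3 held 25.2, 10.5 and 38.2, so each library matched its label. The 5 T cell markers summed to 63592 to 66497 in WT and 65162 to 69150 in Ikzf4-/- libraries, and 0 of them were called. The sum hides fitted changes in both directions, from -0.16 for Cd3g to 0.19 for Trac on the log2 scale (limma adjusted p = 0.130 and 0.0902). The authors' deposited table called 1 of the 5, and 6.34% of the genes to which it gave an adjusted p. Of the 4 Th2 markers 2, Il4 and Il13, were called lower in Ikzf4-/- cells (log2 fold changes -0.87 and -0.82). Il5 (-1.24, limma adjusted p = 0.0529) and Gata3 (-0.24, limma adjusted p = 0.146) were also fitted lower but not called. The 4 markers summed to 11978 to 13163 in WT and 8982 to 10313 in Ikzf4-/- libraries, sums in which Gata3 weighs most. The part of these differences in the results below was not tested. In bulk RNA, fewer cells of a type and less RNA per cell cannot be told apart. The CD8 T cell markers Cd8a and Cd8b1 summed to 236 to 423 in WT and 232 to 374 in Ikzf4-/- libraries, the B cell markers Cd79a and Cd79b to 51.1 to 83.6 and 58.6 to 90.4, and Itgax, the only measured gene of 6 myeloid and dendritic cell markers, was at 6.39 to 13.5 and 6.03 to 13.6. Ms4a1, Lyz2, Itgam, Csf1r, Flt3, Cd14, Ncr1 and Klrb1c were not analysed here.

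In the cells without Eos the fitted changes of the proteasome transcripts were small, and the largest were those of the immunoproteasome genes Psmb8 and Psmb9. Psmb8, which encodes the inducible subunit that takes the place of Psmb5, fell by 15.1%, and it was the only member to pass the test. Its call was kept in 2 of the 6 fits that left out a library. Psmb9 and Psmb10 had fitted changes of -13.5% and -7.75% and did not pass. Each of the 45 other members had a fitted change between -8.16% and 6.61%. Of the 48 members, 1 (2.08%) was called lower and 0 higher at a limma adjusted p under 0.05, a share near that of all genes. Of all 14864 genes tested, 1.77% were called, 1.2% lower and 0.572% higher. At an unadjusted p under 0.05 there were 4 members (8.33%), against 18.1% of all genes tested. The authors' deposited table called 2 of the 48 members, Psmb8 and Psmb9, where it called 6.34% of the genes to which it gave an adjusted p.

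**Figure D1:**
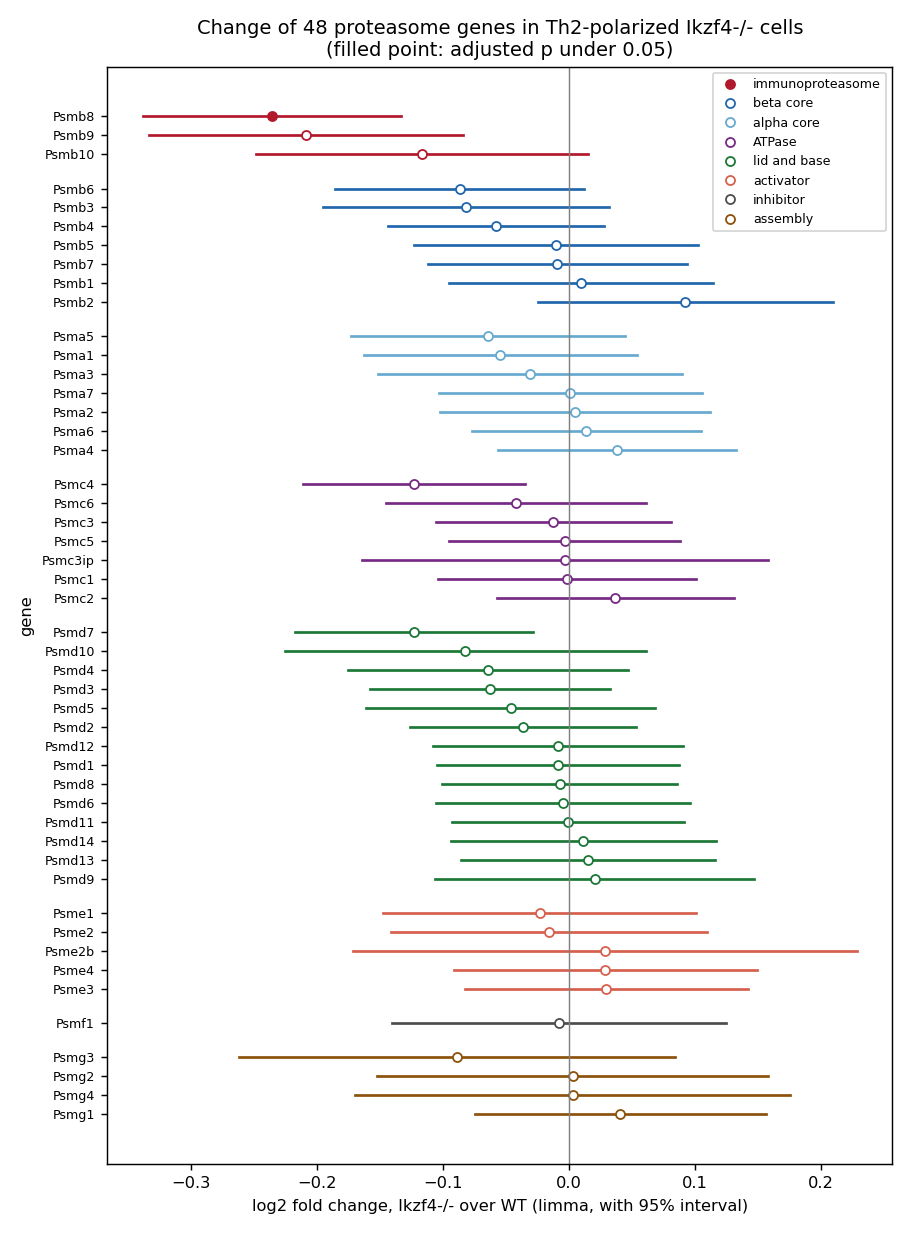
Log2 fold change of normalized reads (Ikzf4-/- over WT, x axis) for each of the 48 genes (y axis), with the 95% interval of the limma fit, coloured by class. Filled points passed an adjusted p under 0.05. Psmb8 is the only filled point, Psmb9 lies next to it, and the members outside the immunoproteasome lie between -0.12 and 0.09.

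The spread of the members was small beside that of other genes. The median absolute log2 fold change was 0.03 over the members and 0.11 over all genes tested. The median coefficient of variation between replicates was 3.20% in WT and 3.29% in Ikzf4-/- cells over the members, against 7.92% and 7.20% over all genes tested. The members were abundant, with a median percentile of 92.5 among the mean levels of all genes in the table, and abundant genes have less counting noise. Over the 45 members outside the immunoproteasome, the 95% intervals of the fitted change reached no lower than -16.6% (Psmg3) and no higher than 17.2% (Psme2b). Of all normalized reads, the members together took 0.861%, 0.864% and 0.882% in WT replicates 1 to 3, against 0.870%, 0.869% and 0.860% in Ikzf4-/- replicates 1 to 3, so the shares of the genotypes overlapped. The 3 immunoproteasome genes alone took 0.0536%, 0.0523% and 0.0530% in WT, against 0.0461%, 0.0469% and 0.0465% in the Ikzf4-/- libraries, and these shares did not overlap.

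Psmb8 (ENSMUSG00000024338) lies on chromosome 17 at 34197721 to 34201454 on the plus strand of GRCm38, in the MHC. WT replicates 1 to 3 held 14959, 13774 and 14074 normalized reads, against 11734, 12359 and 12252 for Ikzf4-/- replicates 1 to 3. Every Ikzf4-/- library was below every WT library. The mean fell from 14269 ± 616 to 12115 ± 334 (SD, n = 3 each), which is -0.24 ± 0.05 (SE) on the log2 scale (limma adjusted p = 0.0372), and a 95% interval of -20.9% to -8.82%. The authors' deposited table gives -0.24 for Psmb8 on the same scale, with an adjusted p of 0.000928. The call was kept in 2 of the 6 fits that left out a library, with a limma adjusted p of 0.0487 without WT replicate 1 and 0.0356 without WT replicate 3, and lost in the other 4. There the limma adjusted p was 0.0615 without WT replicate 2, 0.110 without Ikzf4-/- replicate 1, 0.0869 without Ikzf4-/- replicate 2 and 0.111 without Ikzf4-/- replicate 3, while the log2 fold change stayed between -0.26 and -0.20 over all 6.

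Psmb9 (ENSMUSG00000096727), the inducible counterpart of Psmb6, lies 9.957 kb from Psmb8, at 34181987 to 34187764 on the minus strand of chromosome 17. WT libraries held 2583, 2858 and 2891 normalized reads, against 2429, 2387 and 2385 for Ikzf4-/- libraries. The groups did not overlap, and WT replicate 1 lay nearest to the Ikzf4-/- values. The log2 fold change, -0.21 ± 0.06 (SE), did not pass (limma adjusted p = 0.0862). The 95% interval ran from -20.6% to -5.66%. Psmb9 was called with array weights and without WT replicate 1 (limma adjusted p = 0.0304), and in the authors' deposited table its adjusted p was 0.0364.

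Psmb10 (ENSMUSG00000031897), the inducible counterpart of Psmb7, lies outside the MHC, on chromosome 8 at 105935735 to 105938444 on the minus strand. WT libraries held 2489, 2455 and 2526 normalized reads, against 2473, 2279 and 2150 for Ikzf4-/- libraries. Ikzf4-/- replicate 1 fell within the WT range and the other two lay below it. The log2 fold change of -0.12 (SE 0.06) did not pass (limma adjusted p = 0.335). It ran from -0.17 without Ikzf4-/- replicate 1 to -0.07 without Ikzf4-/- replicate 3, and it was called in 0 of the 6 fits that left out a library.

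The constitutive counterparts did not pass the test either, and their fitted changes were smaller. Psmb5, which carries the chymotrypsin-like site, was at 6624, 6685 and 7067 normalized reads in WT, against 6491, 7151 and 6599 in Ikzf4-/- libraries, with both groups spread over the same range (log2 fold change -0.01, limma adjusted p = 0.943). Psmb7, which carries the trypsin-like site, was at 8599, 8282 and 8721 in WT and 8560, 8784 and 8104 in Ikzf4-/- libraries, again overlapping (log2 fold change -0.01, limma adjusted p = 0.944). Psmb6, which carries the caspase-like site, was at 8727, 8656 and 8919 in WT and 7973, 8609 and 8197 in Ikzf4-/- libraries. Its groups did not overlap, by a narrow gap, and its log2 fold change of -0.09 did not pass (limma adjusted p = 0.338).

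**Figure D2:**
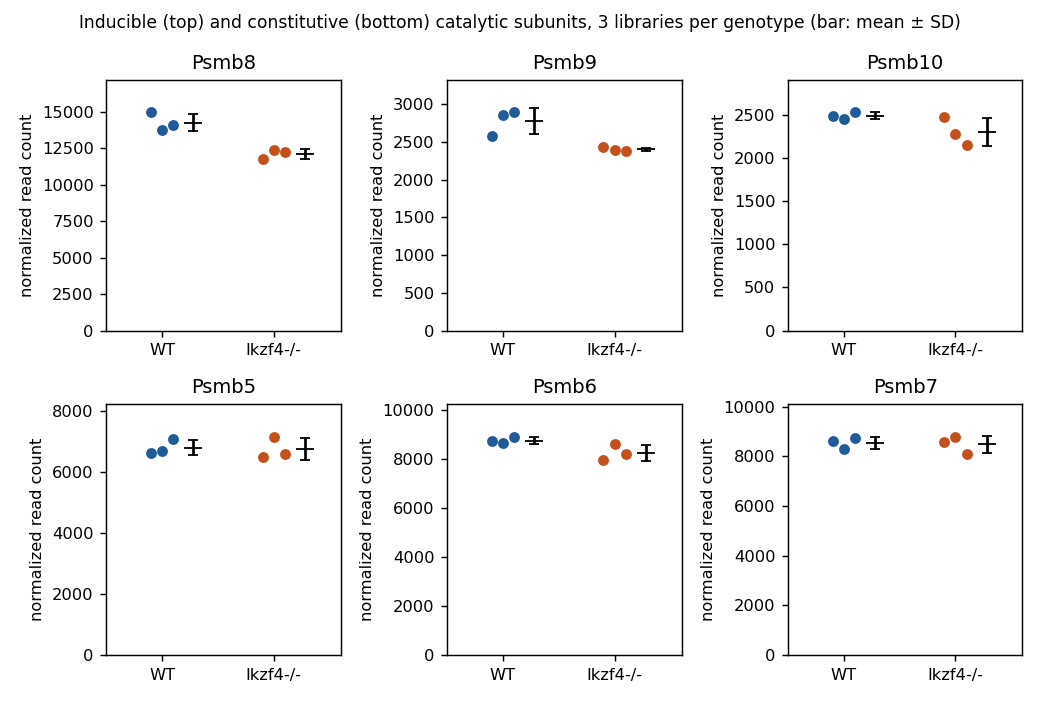
Normalized read counts (y axes from 0) of the inducible catalytic subunits (top) and the constitutive subunit each replaces (bottom) in the 3 WT and 3 Ikzf4-/- libraries. Points are libraries and bars are mean ± SD. The Psmb8 and Psmb9 points of the genotypes are apart, and those of Psmb5 and Psmb7 overlap.

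Because a ratio of 2 genes within a library does not depend on how that library was scaled, each inducible subunit was also divided by its constitutive counterpart, after dividing each by the length of its principal coding transcript. The ratio of Psmb8 to Psmb5 was 1.247, 1.14 and 1.10 in WT replicates 1 to 3, against 0.998, 0.954 and 1.03 in Ikzf4-/- replicates 1 to 3. No Ikzf4-/- ratio reached the lowest WT ratio. The log2 ratio differed by -0.23 (SE 0.06) between the genotypes (exact two-sided permutation test, p = 0.1, the smallest that 3 against 3 libraries allow; Benjamini-Hochberg p = 0.15 over the 3 pairs).

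The ratio of Psmb9 to Psmb6 was 0.175, 0.195 and 0.191 in WT and 0.180, 0.164 and 0.172 in Ikzf4-/- libraries. These overlapped, with a log2 difference of -0.12 (SE 0.06, exact permutation p = 0.2, Benjamini-Hochberg p = 0.2). The ratio of Psmb10 to Psmb7 was 0.256, 0.262 and 0.256 in WT and 0.256, 0.230 and 0.235 in Ikzf4-/- libraries. The groups were apart only by the narrow gap between Ikzf4-/- replicate 1 and WT replicate 1, with a log2 difference of -0.11 (SE 0.05, exact permutation p = 0.1, Benjamini-Hochberg p = 0.15). The design cannot pass 0.05 with this test, and all 3 differences had the same sign.

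**Figure D3:**
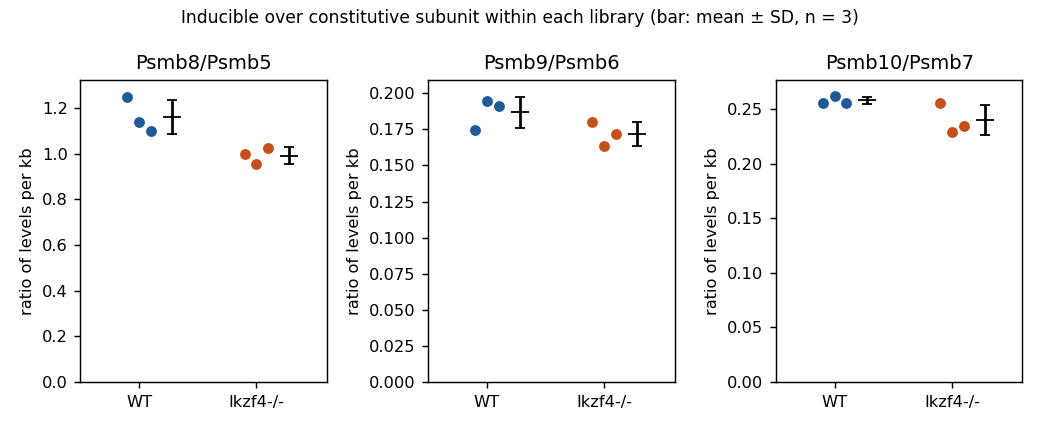
Ratio of the inducible to the constitutive subunit per kb of principal transcript (y axes from 0) in each library, with bars for mean ± SD (n = 3). The Psmb8/Psmb5 ratio lies between 1.10 and 1.247 in WT and between 0.954 and 1.03 in Ikzf4-/- libraries.

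As a share of the Psmb8 and Psmb5 transcripts per kb, Psmb8 made up 53.7% ± 1.62 in WT and 49.8% ± 0.906 in Ikzf4-/- cells (SD, n = 3 each). Psmb9 made up 15.7% ± 0.770 and 14.7% ± 0.589 of its pair, and Psmb10 20.5% ± 0.221 and 19.3% ± 0.891. These levels depend on the length chosen for each gene: with the union of all annotated exons in place of the principal transcript, the WT shares were 35.8% for Psmb8, 13.9% for Psmb9 and 36.9% for Psmb10, and the Ikzf4-/- shares were 32.3%, 12.95% and 35.2%.

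Stretches before the RefSeq starts of the catalytic subunit genes other than Psmb7 were searched for 4 short motifs, to show the sequence beside the inducible and constitutive genes that differ in the values above. The motifs, chosen after the values were known, were GAAANNGAAA (a pair of half-sites bound by interferon regulatory factors), TTCNNNGAA and TTCNNNNGAA (spacings bound by STAT factors, the wider one preferred by STAT6) and TGACNNNGC (the core of the antioxidant response element, bound by the factors of Nfe2l1 and Nfe2l2). Both strands of the 250 bases before each RefSeq start (GRCm38.p6) were read, and 41 of the 48 members had an entry. The RefSeq starts of Psmb5, Psmb8, Psmb9 and Psmb10 lie inside the genes as GENCODE M21 places them, so that the stretch printed for Psmb8 is within its GENCODE bounds and that for Psmb10 crosses the GENCODE start of the gene. Matches, in capitals within 30 bases written 5′ to 3′ on the strand of the gene, were found for these catalytic subunit genes:
Psmb8, TTCNNNGAA, chr17:34198087-34198116, plus strand: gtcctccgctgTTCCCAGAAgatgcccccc
Psmb10, TTCNNNNGAA, chr8:105938440-105938469, minus strand: gtaacttcagTTCCAGGGAAtctgatgccc
Psmb5, TGACNNNGC, chr14:54618024-54618053, minus strand: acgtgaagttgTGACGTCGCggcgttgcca
Psmb6, TGACNNNGC, chr11:70525327-70525356, plus strand: acagaggcggactaaagagagTGACGGAGC
Such matches are common. TTCNNNGAA occurred in 7.02% of all 32851 promoter entries and in 2 members, Psmb8 and Psmg1. TTCNNNNGAA occurred in 5.85% of entries and in 1 member, Psmb10. TGACNNNGC occurred in 10.2% of entries and in 5 members, the other 3 being Psmc6, Psmd12 and Psmd9. GAAANNGAAA occurred in 2.98% of entries and in 3 members, Psmb3, Psmd4 and Psmd9. The window of Psmb9 held none of the 4 motifs. A match describes these letters and does not show a binding site.

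Among the 7 constitutive beta subunits, 0 were called in either direction and the median log2 fold change was -0.01. Psmb6 was the lowest (values above). Psmb2 was the highest, at 4113, 4011 and 4242 normalized reads in WT and 4601, 4465 and 4128 in Ikzf4-/- libraries, where replicates 1 and 2 lay above the WT range and replicate 3 within it (log2 fold change 0.09, SE 0.05, limma adjusted p = 0.395). Psmb4, the most abundant member per kb, had Ikzf4-/- values of 13679, 13948 and 13855, each below the WT values of 14521, 14366 and 14285, a fitted change of only -3.92% (limma adjusted p = 0.480).

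The alpha rings gave the same picture, with 0 of 7 called and a median log2 fold change of 0.00. The lowest was Psma5, at 5848, 5391 and 5476 in WT and 5159, 5329 and 5499 in Ikzf4-/- libraries, where the groups overlapped (log2 fold change -0.06, limma adjusted p = 0.545). The highest was Psma4, at 7584, 7532 and 7903 in WT and 7942, 7977 and 7718 in Ikzf4-/- libraries, also overlapping (log2 fold change 0.04, limma adjusted p = 0.694).

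Of the 7 Psmc genes 0 were called. Psmc4, an ATPase of the ring that unfolds substrates, had the lowest log2 fold change. It was at 7716, 7742 and 7853 in WT and at 7137, 7151 and 7119 in Ikzf4-/- libraries, with little spread within either group and no overlap (log2 fold change -0.12, SE 0.04). It did not pass over all genes (limma adjusted p = 0.140, and 0.140 in the authors' deposited table). Psmc2 was the highest, at 7740, 7966 and 7849 in WT and 8319, 7941 and 7909 in Ikzf4-/- libraries, which overlapped (log2 fold change 0.04, limma adjusted p = 0.708). Psmc3ip, the non-subunit, had a log2 fold change of 0.00.

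Of the 14 Psmd genes, which encode the base and lid and some chaperones of base assembly, 0 were called and the median log2 fold change was -0.01. Psmd7, the lid partner of the deubiquitinase subunit Psmd14, was the lowest. It was at 8902, 8389 and 8816 in WT and 8008, 7900 and 8062 in Ikzf4-/- libraries, without overlap (log2 fold change -0.12, SE 0.04, limma adjusted p = 0.164, and 0.163 in the authors' deposited table). Psmd14 itself had a log2 fold change of 0.01 (95% interval -6.28% to 8.43%). Psmd9, a chaperone of base assembly, was the highest, at 1595, 1588 and 1713 in WT and 1650, 1622 and 1692 in Ikzf4-/- libraries, with overlap (log2 fold change 0.02, limma adjusted p = 0.893). The scaffold subunits Psmd1 and Psmd2 and the ubiquitin receptor Psmd4 had log2 fold changes of -0.01, -0.04 and -0.06, and none of the 3 was called.

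The interferon-inducible activator encoded by Psme1 and Psme2, which opens the gate of the core, had no call. Psme1 was at 8921, 9103 and 9789 in WT and 9730, 9081 and 8575 in Ikzf4-/- libraries, with a 95% interval of the change from -9.71% to 7.27%. Psme2 was at 8695, 9365 and 9740 in WT and 8576, 9426 and 9494 in Ikzf4-/- libraries, with an interval from -9.31% to 7.88%. Both overlapped between genotypes (limma adjusted p = 0.877 and 0.918). The lower bound of each interval was above the fitted change of Psmb8, while the intervals of Psmb8, Psme1 and Psme2 touched at their ends, and the difference between these genes was not tested.

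The nuclear activators were also level. Psme3 was at 12597, 11439 and 12251 in WT and 12371, 11807 and 12854 in Ikzf4-/- libraries, overlapping (log2 fold change 0.03, limma adjusted p = 0.814). Psme4 was at 3576, 3514 and 3304 in WT and 3379, 3507 and 3719 in Ikzf4-/- libraries, overlapping (log2 fold change 0.03, limma adjusted p = 0.832). Psme2b had a log2 fold change of 0.03, and its reads can be shared with Psme2, so its value is uncertain.

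Psmf1, which encodes an inhibitor of the core in vitro, was at 1828, 2042 and 1968 in WT and 2004, 1928 and 1871 in Ikzf4-/- libraries, overlapping (log2 fold change -0.01, limma adjusted p = 0.965). The 4 chaperones of core assembly had 0 calls. Psmg3 was the lowest, at 939, 1040 and 1140 in WT and 974, 978 and 970 in Ikzf4-/- libraries, the latter inside the WT range (log2 fold change -0.09, limma adjusted p = 0.601). Psmg1 was the highest, at 2450, 2349 and 2513 in WT and 2420, 2550 and 2551 in Ikzf4-/- libraries, with overlap (log2 fold change 0.04, limma adjusted p = 0.740).

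No overlap between genotypes was seen for 6 members, Psmb4, Psmb6, Psmb8, Psmb9, Psmc4 and Psmd7, each with the Ikzf4-/- libraries lower. That is 12.5% of the members, close to the 12.2% of all genes tested that were lower without overlap. For 0 members were the Ikzf4-/- libraries all higher, against 11% of all genes tested. The sign of the smallest changes depended on scaling: 32 of 48 members had a fitted change below 0 with the deposited values, 28 with upper quartile scaling, 21 with quantile scaling and 18 with equal library totals. The median log2 fold change of all genes moved from 0.00 to 0.03 with equal totals. Psmb8, Psmb9 and Psmb10 had a fitted change below 0 under each of these scalings.

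Per kb of principal transcript, the WT levels of the members spanned from 511 ± 28.6 for Psmf1 to 12165 ± 102 normalized reads per kb for Psmb4 (SD, n = 3). The 14 constitutive core subunits, which the particle holds in equal numbers, ran from 2460 per kb for Psma3 to 12165 for Psmb4. After Psmb4 came Psmb6 at 10987 ± 170 per kb, then Psma6, Psme2 and Psma7 at 9643 ± 154, 9633 ± 550 and 9500.3 ± 264, which did not differ beyond their spread. Psmb8 was the sixth in WT, at 8765 ± 378 per kb, and the ninth in Ikzf4-/- cells, at 7442 ± 205. Psmb9 and Psmb10 lay far below it, at 2054 ± 125 and 1899 ± 27.3 per kb in WT. The assembly chaperones lay between 1068 and 2334 per kb, and Psme4, which encodes a large single-chain activator, was at 534 ± 22.0. The annotated transcript may not be the one used in these cells, so this order describes the deposited reads and chosen lengths.

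**Figure D4:**
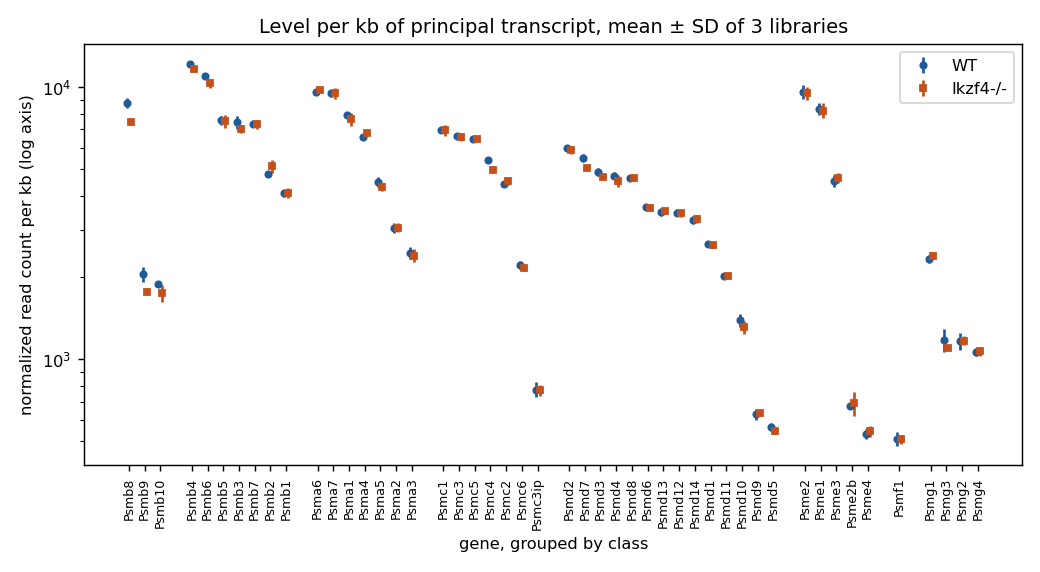
Normalized reads per kb of principal transcript (log axis) for each gene, grouped by class, with mean ± SD of 3 WT (circles) and 3 Ikzf4-/- (squares) libraries. Levels within the core differ between genes, from 2460 to 12165 per kb in WT, by far more than any gene differs between genotypes.

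The lists of other genes around the proteasome were described the same way. Of 20 tested proteasome partners (deubiquitinases, shuttle factors, the assembly factor Pomp and the transcription factors of Nfe2l1 and Nfe2l2), 0 were called and the median log2 fold change was 0.00. Nfe2l1, which encodes the factor that raises proteasome genes when proteasome activity is low, was at 5753, 6068 and 5916 in WT and 6010, 5849 and 5874 in Ikzf4-/- libraries, which overlapped (log2 fold change 0.00). The lowest was Akirin2, needed for nuclear import of proteasomes, at -0.47 on the log2 scale (limma adjusted p = 0.110). Its WT values of 2299, 1757 and 1411 were widely spread, its Ikzf4-/- values were 1250, 1260 and 1370, and the value moved to -0.28 without WT replicate 1 (limma adjusted p = 0.157) and to -0.64 without WT replicate 3 (limma adjusted p = 0.0150), the latter the only one of the 6 fits without a library that called it. The highest was Usp14, a deubiquitinase of the regulatory particle, with a log2 fold change of 0.09 (0.393).

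Of 12 genes of ubiquitin supply and of the Vcp unfolding machine, 0 were called. Uba6, a ubiquitin-activating enzyme, was the highest at 0.18 on the log2 scale (limma adjusted p = 0.161). The median of the list was -0.01.

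The genes of class I antigen processing, the pathway fed by the immunoproteasome, had 2 of 12 called, both lower, with a median log2 fold change of -0.17 against 0.00 over all genes tested. Of all genes tested, 1.2% were called lower. Of the 12 genes 5 were lower without overlap, against 12.2% of all genes tested. H2-K1, a class I heavy chain, was at 33446, 29311 and 29875 in WT and 26823, 25145 and 23780 in Ikzf4-/- libraries, without overlap (log2 fold change -0.29, limma adjusted p = 0.0450). H2-D1, another heavy chain, was at 28263, 27838 and 27038 in WT and 23643, 23700 and 23073 in Ikzf4-/- libraries, without overlap (log2 fold change -0.24, limma adjusted p = 0.0249). Class I genes resemble each other closely, so their reads may be split between copies. Neither call held in each fit without 1 library: H2-D1 was called in 2 and H2-K1 in 1 of the 6, with the highest adjusted p, 0.1001 and 0.161, without Ikzf4-/- replicate 3.

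Of the other members of that list, 3 were picked after their values were seen, as the uncalled genes that were lower without overlap. Tapbp, at -0.18 on the log2 scale with overlapping groups (limma adjusted p = 0.198), was not among them. The peptide transporter gene Tap1 was at 5151, 6114 and 5589 in WT and 4619, 4840 and 5123 in Ikzf4-/- libraries, and Tap2 at 8558, 8893 and 8285 and at 7806, 7558 and 7612. Each was without overlap and not called (log2 fold changes -0.21 and -0.16, limma adjusted p = 0.131 and 0.0862). With array weights both passed (limma adjusted p = 0.0427 and 0.0417), and Tap1 also passed without WT replicate 1 (0.0413). B2m, the light chain, was at 13072, 11326 and 11330 in WT and 10596, 10323 and 9729 in Ikzf4-/- libraries, without overlap and not called (log2 fold change -0.22, limma adjusted p = 0.0938), and it was called with the replicate block (0.0321). An adjusted p under 0.05 was given to 4 genes of the list by the authors' deposited table, and to 6.34% of all genes for which it holds an adjusted p. Tapbpl, a relative of the loading factor tapasin, was the highest of the list at 0.02 (limma adjusted p = 0.937).

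**Figure D5:**
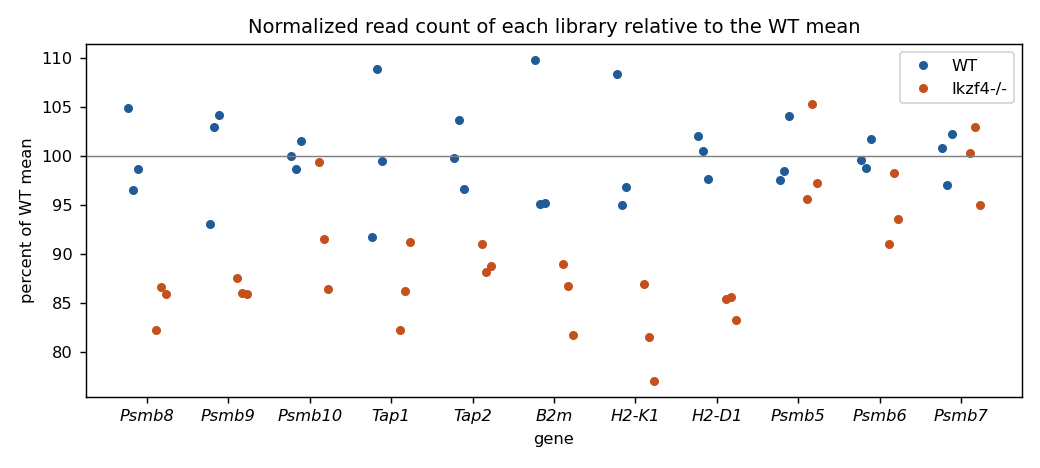
Normalized read count of each library as a percent of the WT mean of the gene, for the immunoproteasome genes, 5 class I antigen processing genes and the 3 constitutive catalytic subunits. The 5 class I genes were picked with their values known. They are the 5 of the list of 12 that were lower without overlap, and the others of the list, not drawn, overlapped between genotypes. The Ikzf4-/- points of Psmb8 lie between 82.2% and 86.6%, and those of Psmb5 and Psmb7 lie on both sides of their WT mean.

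Of 10 genes of interferon signalling and known inducers of the immunoproteasome, 0 were called, with a median log2 fold change of -0.02. Stat2, which encodes a factor of the interferon response, was the lowest, at 1155, 1085 and 1085 in WT and 960, 1010 and 923 in Ikzf4-/- libraries, without overlap (log2 fold change -0.20, limma adjusted p = 0.147). Irf8 was the highest at 0.19 (0.772), with WT values from 897 to 2095. Ifng itself, whose product was blocked by antibody in both genotypes, was at 999, 2778 and 2561 in WT and 1638, 1591 and 2518 in Ikzf4-/- libraries. WT replicate 1 had the lowest Ifng and the highest Psmb8 of the 6 libraries, while its Psmb9, at 2583, was the lowest of the WT values. How these genes relate was not tested.

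Neighbouring genes can share reads with the members. By GENCODE M21, exons of Psmb9 overlap those of Tap1 on the opposite strand, and exons of Psmb8 overlap Gm20496 on the opposite strand. Whether counting used strand is not given in the sources used here, so reads from these stretches cannot be assigned. Gm20496 had a mean of 49.9 in WT and 61.9 in Ikzf4-/- libraries, far below Psmb8. Tap1 had means of 5618 and 4861, above those of Psmb9 (2777 and 2400), so shared reads could weigh more there. Other members also overlap neighbours. Among them is Psmb7, whose exons overlap those of Nek6 on the opposite strand. Nek6 had means of 1149 in WT and 963 in Ikzf4-/- libraries and was not called (limma adjusted p = 0.134). The part of shared reads was not tested.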

How the data were processed

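Per the submitters' processing notes, reads were trimmed with Trimmomatic 0.36 and aligned with STAR 2.5.2b to GRCm38 (mm10), and DESeq2 was used. The counting tool, annotation and use of strand are not given in the sources used here. The deposited sample columns hold a never-negative signal, read as gene counts divided by a size factor per library, since 100% of the values under 400 were whole multiples of 1 step per library (within 0.02 reads). The authors' log2 fold changes, p-values and adjusted p-values are in the same deposited table. No count test was run, since the steps of 2 libraries lay too near 1 for the recovered reads to be checked. The test ran on log2(value + 1) for the 14864 genes whose mean reached 10, and genotype was fitted with limma 3.58.1 (R 4.3.3, empirical Bayes with a mean trend). A call means a two-sided p under 0.05 after Benjamini-Hochberg adjustment across all of these genes. Under this test 263 genes were called, 85 of them higher (32.3%, or 42.8% of 269 with equal library totals). Replicates of a genotype differed by more than sampling noise (chi-square per degree of freedom 7.47 to 18.8). Positions and lengths are from GENCODE M21 (GRCm38), and all 48 members matched. Upstream sequences are RefSeq's. Values of every library were given for Psmb5 to Psmb10, Psme1 to Psme4, called members and the highest and lowest of each class, and, in the gene lists, for called genes and the extremes. Psmb4, Psmd1, Psmd2, Psmd4, Psmd14, Nfe2l1 and Ifng were added after their values were seen. Some genes of the lists are not reported here. The members and lists were chosen with earlier results of these data known. The procedure was tested on simulated data. Alternatives were other scalings, filters, pseudocounts (0.1 and 10), a replicate block, array weights, a threshold of 0.01, leaving out each library, the authors' deposited calls and, added after seeing the data, union exon length.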

Additional observations from a re-analysis of the deposited data

How the results depend on the processing

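Psmb8 kept its direction in every fit that was run and its call under the other scalings, filters and pseudocounts, the replicate block and array weights. The count of called members was 1. It was 0 at a threshold of 0.01, 2 (with Psmb9) with array weights and in the authors' deposited table, and 0 to 2 when a library was left out. The count of all called genes was 263, and 16 at 0.01, 754 with the replicate block (39.3% higher), 482 with array weights, 815 in the authors' deposited table and 20 to 523 without 1 library. The log2 ratio of Psmb8 to Psmb5 ran from -0.26 to -0.17, of Psmb9 to Psmb6 from -0.17 to -0.09 and of Psmb10 to Psmb7 from -0.15 to -0.08 without 1 library.

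Genes near no change turned sign without being called. With quantile scaling the log2 fold change was 0.0150 for Psmb5, 0.0147 for Psmb7 and 0.00626 for Psme2. With equal library totals it was 0.0170 for Psmb5, 0.0181 for Psmb7, 0.00426 for Psme1, 0.0115 for Psme2 and 0.0196 for Psmf1, and with array weights 0.00798 for Psmb5 and 0.0131 for Psmb7. Without 1 library the ranges were -0.0529 to 0.0187 for Psmb5, -0.0348 to 0.0233 for Psmb7, -0.0700 to 0.0211 for Psme1, -0.0609 to 0.0314 for Psme2, -0.0100 to 0.0613 for Psme3, -0.00829 to 0.0608 for Psme4, -0.0522 to 0.0279 for Psmf1, -0.0447 to 0.0710 for Tapbpl and -0.19 to 0.42 for Irf8. The cause was not tested.

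Each replicate number labels 1 library of each genotype, so the replicate block cannot move the differences of the log2 ratios (-0.23, -0.12 and -0.11). With the block the members called stayed at 1. Libraries sharing a number deviated from their group means with correlations of 0.145, 0.0122 and 0.142, and 4 of 6 libraries correlated best with their own number. Pairs with different numbers ran from -0.163 to 0.0491. The block raised the count of all called genes from 263 to 754, so the numbers may mark shared structure. Whether they pair libraries is not given in the sources used here, and the main fit did not assume it. The lowest mean of a member was 571 normalized reads, and the part of depth was not tested. The number of libraries limits the precision.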
